A study of Mus musculus with 24 samples.

Results

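The genes described here are 10 imprinted genes that act on growth, *H19*, *Igf2*, *Meg3*, *Dlk1*, *Peg3*, *Mest*, *Plagl1*, *Cdkn1c*, *Grb10* and *Peg10*, chosen by name out of the 55487 genes in the merged gene table. They were followed in mouse embryonic fibroblasts (MEFs), cells grown out of mouse embryos and kept in culture, of a wild-type (WT) line and a line labelled *tfeb tfe3* double knockout (DKO). Both lines were treated with DMSO as the vehicle, with torin1, an inhibitor of the kinase MTOR, or with MK-8722, an activator of the kinase AMPK, which gave 6 groups of 4 libraries and 24 libraries of poly(A) RNA in all. The design asks how the transcription factors TFEB and TFE3, which drive lysosomal and autophagy genes, shape the response to each drug. WT libraries came from passages 7, 8, 9 and 11 and DKO libraries from passages 8, 9, 10 and 11, with a single library for each passage and treatment. There was 1 line of each genotype, the lines came from another laboratory, and nothing in the labels says that the libraries of a group came from separate animals or clones. A difference between the genotypes and a difference between these 2 lines therefore cannot be told apart, and p-values measure the spread between cultures of a line.

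An imprinted gene is read from the copy inherited from a particular parent, because DNA methylation laid down in the egg or sperm marks the copies differently. Imprinted genes lie in clusters that share a control region, so that neighbours are often switched together. Many of them set the growth of the embryo and placenta, and as a rule the paternally expressed ones promote growth and the maternally expressed ones hold it back. *Igf2*, *Dlk1*, *Peg3*, *Mest*, *Plagl1* and *Peg10* are expressed from the paternal copy in mice, and *H19*, *Meg3* and *Cdkn1c* from the maternal copy. *Grb10* is maternal in most tissues and paternal in neurons, where it starts from another promoter. The counts add both copies together, so parental origin was not measured here.

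**Figure D1:**
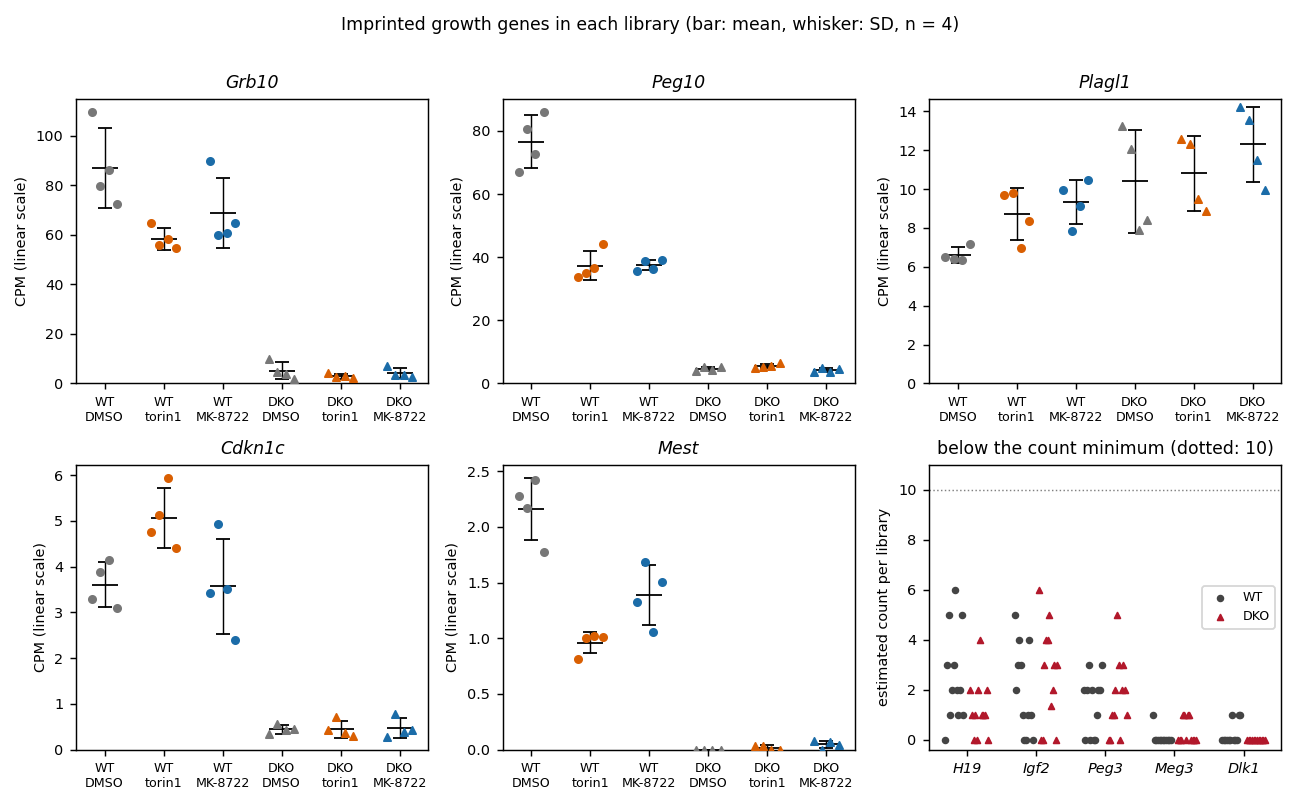
Level of each imprinted growth gene in each library. In the first 5 panels the vertical axis is CPM (linear), the counts scaled to a common library size by TMM, points are libraries in order of passage, bars are means and whiskers SD (n = 4). In the last panel the vertical axis is the estimated count per library of the 5 genes below the minimum of 10 counts, none of which exceeded 6 counts. *Grb10*, *Peg10*, *Cdkn1c* and *Mest* are low in every DKO library, and *Plagl1* is not.

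Libraries held between 24668870 and 33332507 estimated counts assigned to genes, and 3 counts corresponded to 0.0903 to 0.128 CPM, the unit in which a gene's level is compared between libraries. *Tfeb* had 432, 500.5 and 766 counts (lowest, median and highest of 12 libraries) in WT and 36, 52 and 66 in DKO, a 10.2-fold lower level under DMSO (log2 fold change -3.35, SE 0.095, adjusted p = 4.09e-18). *Tfe3* had 2163, 2649 and 4044 counts in WT and 2397, 2974 and 3690 in DKO, and its log2 difference under DMSO was 0.04 (SE 0.031, adjusted p = 0.279). Counts over a whole gene do not show which part of it was deleted, so they do not check the *Tfe3* deletion. Of 12 fibroblast markers, 9 averaged at least 1 CPM, and their summed level was 6800 to 10100 CPM in WT and 6190 to 8710 CPM in DKO. Among these 12 markers *Thy1* had 384 counts over the WT DMSO libraries and 0 over the DKO ones, and *Lum* was at 0 counts in both. At least 1 CPM on average was reached by 2 of 8 epithelial markers, 0 of 6 endothelial, 1 of 7 leukocyte, 1 of 6 muscle, 3 of 6 neural and 0 of 6 pluripotent or germ cell markers. The summed epithelial level was 25.3 to 34.0 CPM in WT and 43.3 to 72.4 CPM in DKO, and the summed muscle level 2.62 to 7.09 and 0.514 to 1.12 CPM. Most of the epithelial sum is *Krt19*, at 27.5 CPM in WT and 56.1 CPM in DKO under DMSO. Of the 5 epithelial markers tested, *Krt19* and *Krt8* were higher in DKO under DMSO and 3 were lower, with 82 against 12 counts of *Cdh1*, 38 against 5 of *Epcam* and 46 against 10 of *Krt18*. Under DMSO no DKO library of *Cdh1* or *Epcam* reached 10 counts, the minimum of the filter on low counts, which fixed their lower direction. The part of the cell type markers in the results on the imprinted genes was not tested.

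The promoters of 3 members are printed here because these genes give the contrasts described further on. They are *Grb10* with a pair of its starts, *Mest* with its start in a CpG-rich stretch, and *Plagl1*, the member that was not low in DKO. Each window runs from 250 bases before to 50 bases after a RefSeq start in GRCm38.p6, is written 5′ to 3′ on the gene's own strand, and has each CpG, the dinucleotide that carries DNA methylation, in capitals.
Grb10 upstream start, chr11:12037371-12037670, minus strand: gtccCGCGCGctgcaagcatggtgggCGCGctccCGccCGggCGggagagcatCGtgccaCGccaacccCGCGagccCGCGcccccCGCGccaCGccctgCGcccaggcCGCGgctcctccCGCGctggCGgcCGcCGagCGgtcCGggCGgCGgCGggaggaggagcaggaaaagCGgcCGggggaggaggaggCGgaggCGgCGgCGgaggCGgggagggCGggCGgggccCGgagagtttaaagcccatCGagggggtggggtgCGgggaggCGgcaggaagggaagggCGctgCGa
Grb10 downstream start, chr11:12027922-12028221, minus strand: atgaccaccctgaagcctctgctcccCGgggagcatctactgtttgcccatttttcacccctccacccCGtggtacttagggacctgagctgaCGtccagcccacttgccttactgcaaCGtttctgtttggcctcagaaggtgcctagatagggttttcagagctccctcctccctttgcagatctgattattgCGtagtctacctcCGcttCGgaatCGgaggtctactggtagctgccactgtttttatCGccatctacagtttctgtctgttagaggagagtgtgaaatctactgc
Mest downstream start, chr6:30737800-30738099, plus strand: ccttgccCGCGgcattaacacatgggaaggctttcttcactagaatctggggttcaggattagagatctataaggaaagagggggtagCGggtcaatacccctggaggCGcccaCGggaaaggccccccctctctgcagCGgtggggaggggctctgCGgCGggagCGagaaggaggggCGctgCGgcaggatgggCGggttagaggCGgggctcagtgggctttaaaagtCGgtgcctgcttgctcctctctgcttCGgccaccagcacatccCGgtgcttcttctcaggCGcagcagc
Plagl1, chr10:13090582-13090881, plus strand: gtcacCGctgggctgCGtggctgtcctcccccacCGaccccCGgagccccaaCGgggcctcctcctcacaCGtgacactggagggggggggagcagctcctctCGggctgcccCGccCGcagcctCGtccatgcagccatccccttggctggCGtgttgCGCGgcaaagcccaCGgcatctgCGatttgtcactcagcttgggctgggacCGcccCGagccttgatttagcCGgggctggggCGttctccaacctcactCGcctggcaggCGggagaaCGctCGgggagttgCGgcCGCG

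The upstream *Grb10* window held 45 CpG and was 80.0% G or C, and 98.1% of the 32817 promoters in the same table held fewer. The downstream *Grb10* window held 9 CpG and the median promoter 7. The *Mest* window held 17 CpG and the *Plagl1* window 26. The letters CACGTG, the core of the E-box that TFEB and TFE3 recognise and the same on both strands, occurred in 7.15% of all promoters of this length. Among the 14 windows that the table gives for 7 of the 10 members they occurred in the *Plagl1* window alone, 182 bases before the start. A match of letters describes the sequence and does not show binding.

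Of the 10 genes, 5 were silent or nearly so in both lines. *H19*, a maternal noncoding RNA, had 0 to 6 counts in any library and 46 counts over all 24. *Igf2*, the fetal growth factor encoded 72622 bases from it on chromosome 7, had 0 to 6 counts and 55.3 in all. *Meg3*, a maternal noncoding RNA, and *Dlk1*, a membrane protein related to Notch ligands that lies 77664 bases from it on chromosome 12, had 0 or 1 count per library and 5 and 3 in all. *Peg3*, a zinc finger protein, had 0 to 5 counts and 37 in all. The highest of these values was 0.256 CPM. *H19* had 31 counts over the WT libraries and 15 over the DKO ones. None of the 5 passed the filter on low counts, so they enter no test.

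The other 5, *Grb10*, *Peg10*, *Cdkn1c*, *Plagl1* and *Mest*, passed the filter, *Mest* through its WT libraries alone. Levels of different genes are compared as TPM, which divide by transcript length. In WT under DMSO the order was *Grb10* with 32.4 ± 7.08 TPM (SD, n = 4), *Peg10* with 17.6 ± 1.99, *Cdkn1c* with 4.64 ± 0.581, *Plagl1* with 2.79 ± 0.575 and *Mest* with 1.71 ± 0.553. Only *Plagl1* and *Mest* overlapped among neighbours in this order, with libraries from 2.24 to 3.57 and from 1.09 to 2.36 TPM. In DKO under DMSO *Plagl1* came first with 4.25 ± 1.5 TPM, followed by *Grb10* with 2.01 ± 1.13, *Peg10* with 1.03 ± 0.162, *Cdkn1c* with 0.461 ± 0.254 and *Mest* at 0. There *Plagl1* overlapped *Grb10* and *Grb10* overlapped *Peg10*, while *Peg10* and *Cdkn1c* did not overlap.

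The 2 lines were first compared under each treatment in edgeR by the quasi-likelihood test, p-values being adjusted after Benjamini and Hochberg over the 15401 genes tested, and a gene was called where the adjusted p was below 0.05 and the change at least 1.2-fold. *Grb10*, *Peg10*, *Cdkn1c* and *Mest* were lower in DKO MEFs under DMSO, torin1 and MK-8722 alike, by 6.69-fold or more in each comparison, and their WT and DKO libraries did not overlap. How often libraries of the lines stayed apart among all tested genes was not counted, so this is not particular to these genes. *Plagl1* was higher in DKO under DMSO and MK-8722. Under DMSO 4 of the 5 tested members were called lower and 1 higher, where 24.6% of all tested genes were called lower and 23.5% higher. Under torin1 4 were called lower and 0 higher, against 27.8% and 24% of all genes, and under MK-8722 4 lower and 1 higher, against 25.4% and 23.3%. *Mest* passed the filter through its WT libraries alone, which fixed its direction, and without it 3 of the other 4 were lower under each treatment. In bulk RNA, fewer cells that express a gene and less RNA per cell cannot be told apart.

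*Grb10* encodes an adaptor that binds the insulin and IGF1 receptors, restrains growth and is itself a substrate of MTORC1, and it lies on the minus strand of chr11:11930508-12038683 (GRCm38, as all positions here). WT libraries under DMSO held 109.5, 79.7, 86.3 and 72.5 CPM at passages 7, 8, 9 and 11. DKO libraries under DMSO held 10.03, 4.69, 3.76 and 1.92 CPM at passages 8, 9, 10 and 11. The highest DKO value was far below the lowest WT value, and the 12 libraries of each line spanned 54.7 to 109.5 and 1.92 to 10.03 CPM. The level was 17.4-fold lower in DKO (log2 fold change -4.12, SE 0.32, adjusted p = 1.17e-10), and 19.7-fold lower under torin1 (-4.30, SE 0.33, adjusted p = 1.07e-10) and 16.2-fold lower under MK-8722 (-4.02, SE 0.32, adjusted p = 2.01e-10). Among the DKO libraries those of passage 8 were the highest and those of passage 11 the lowest under each treatment.

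Transcripts of *Grb10* grouped by their start, a grouping made after the values were seen, were low from both starts. The upstream start, whose CpG-dense promoter is printed above, gave 18.8 ± 4.05 TPM in WT and 1.21 ± 0.719 TPM in DKO under DMSO (n = 4 each). The downstream start gave 6.70 ± 1.3 TPM in WT and 0.371 ± 0.321 TPM in DKO. Libraries of the lines did not overlap at either start, with 15.3 to 24.4 against 0.53 to 2.02 TPM upstream and 5.65 to 8.57 against 0 to 0.749 TPM downstream. *Grb10*-203, the transcript of the downstream start, took 20.8% ± 1.43 of the gene's TPM in WT and 14.5% ± 10.5 in DKO.

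**Figure D2:**
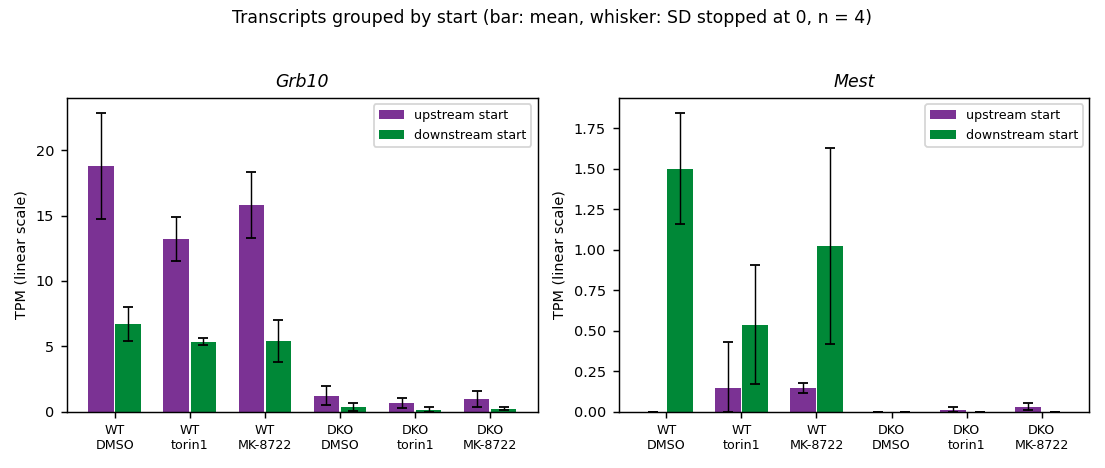
Transcript level by start of *Grb10* (left) and *Mest* (right) in the 6 groups. The vertical axes are TPM on linear scales, bars are means and whiskers SD stopped at 0 (n = 4). *Grb10* is low from both starts in DKO, with 1.21 and 0.371 TPM under DMSO, and the downstream start of *Mest* is at 0 in each DKO group.

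*Cdkn1c* encodes a cyclin-dependent kinase inhibitor that stops the cell cycle, and lies on the minus strand of chr7:143458339-143461050. Under DMSO its WT libraries held 3.29, 3.88, 4.16 and 3.10 CPM in passage order. The DKO libraries held 0.342, 0.561, 0.422 and 0.446 CPM, from 8 to 14 counts each. No DKO library of any treatment exceeded 0.790 CPM and no WT library was under 2.40 CPM. The level was 8.04-fold lower in DKO under DMSO (log2 fold change -3.01, SE 0.27, adjusted p = 1.37e-09), 11.2-fold lower under torin1 (-3.49, SE 0.26, adjusted p = 5.68e-11) and 7.41-fold lower under MK-8722 (-2.89, SE 0.26, adjusted p = 1.97e-09).

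*Peg10* encodes proteins derived from a retrotransposon and is needed to build the placenta. It lies on the plus strand of chr6:4747306-4760517. Its WT libraries held 66.9, 80.7, 72.8 and 86.1 CPM under DMSO. The DKO libraries held 3.80, 5.17, 4.19 and 5.21 CPM. Over all treatments WT spanned 33.9 to 86.1 and DKO 3.55 to 6.58 CPM, so the lines stayed apart even where torin1 and MK-8722 had lowered the WT level. The level was 16.6-fold lower in DKO under DMSO (log2 fold change -4.06, SE 0.12, adjusted p = 9.03e-18), 6.69-fold lower under torin1 (-2.74, SE 0.12, adjusted p = 3.9e-15) and 8.77-fold lower under MK-8722 (-3.13, SE 0.12, adjusted p = 7.6e-16).

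*Mest* encodes a protein of the alpha/beta hydrolase family, and lies on the plus strand of chr6:30723547-30748465. It was the least abundant of the tested members, with 74, 58, 71 and 59 counts in the WT libraries under DMSO and 0 in each DKO library. The 262 WT counts against 0 put the DKO level at least 74.2-fold lower, taking 3 counts over the group as the limit that a count of 0 allows. Under torin1 117 WT counts stood against 2 in DKO, a ratio of 52.7 (95% exact interval 14.3 to 440.0, counting error only). Under MK-8722 153 stood against 5, a ratio of 29.9 (12.5 to 93.5).

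In WT under DMSO all the *Mest* TPM that could be placed at a start fell on the downstream start printed above, 1.5 ± 0.344 TPM against 0 upstream. The 2 DKO counts under torin1 and the 5 under MK-8722 were all placed at the upstream start, and the downstream start had 0 in all 12 DKO libraries. In WT under torin1, 26 counts were placed upstream, all of them in replicate 3, whose downstream start was at 0. In WT under MK-8722, 23.6 counts were placed upstream, with 0.117 to 0.19 TPM in each of the 4 libraries. With so few reads the division between starts is an estimate of the quantification and was not tested.

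*Plagl1* encodes a zinc finger transcription factor that can arrest the cell cycle, and lies on the plus strand of chr10:13060504-13131694. Under DMSO its WT libraries held 6.49, 6.42, 6.34 and 7.20 CPM. The DKO libraries held 13.2, 12.1, 7.87 and 8.40 CPM at passages 8, 9, 10 and 11. All DKO values were above all WT values under DMSO, and the DKO libraries of passages 8 and 9 were the highest under each treatment. The level was 1.57-fold higher in DKO under DMSO (log2 fold change 0.65, SE 0.16, adjusted p = 0.00143) and 1.32-fold higher under MK-8722 (0.40, SE 0.16, adjusted p = 0.0331). Under torin1 the log2 difference was 0.31 (SE 0.16, adjusted p = 0.0886), and with passage as a block it was 0.40 and passed (adjusted p = 0.0241), as it did without DKO torin1 replicate 2 (adjusted p = 0.0379). The call under MK-8722 was lost without DKO replicate 1 or 4 or without WT replicate 1 or 3 of that treatment, with adjusted p from 0.0666 to 0.119. Over all treatments the lines overlapped, with 6.34 to 10.46 CPM in WT and 7.87 to 14.2 CPM in DKO.

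The shares of a gene's TPM that its transcripts took were compared between the lines under DMSO for 14 transcripts of *Plagl1*, *Cdkn1c*, *Grb10* and *Peg10*. A two-sided exact permutation test with n = 4 each cannot give a p under 0.0286, which for a single transcript among 14 is an adjusted p of 0.4, so the design could not call a transcript on its own and the shares are given as values. *Cdkn1c*-203, the transcript that reached that smallest p, took 16.4% in WT and 0% in DKO. The DKO DMSO libraries held only 8 to 14 counts of the whole gene. Over all 12 libraries of each line this transcript took 14.4% in WT and 18.4% in DKO, so its absence under DMSO did not hold across treatments. *Peg10* was divided among its 3 transcripts as 37.3, 25.5 and 37.2% in WT and 29.3, 34.0 and 36.8% in DKO.

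Torin1 and MK-8722 were each compared with the DMSO libraries of the same line, which both drugs share. In WT MEFs both drugs lowered *Peg10* and *Mest* and raised *Plagl1*, and torin1 raised *Cdkn1c*. With torin1 in WT 2 members were called higher and 2 lower, where 26.6% and 20.5% of all tested genes were. With MK-8722 in WT 1 was called higher and 2 lower, against 10.3% and 5.87%. In DKO, with torin1, 0 members were called by edgeR, against 23% higher and 20.2% lower among all genes, and 1 of the 5, *Peg10*, had an unadjusted p under 0.05. There limma voom and DESeq2 gave 0 as well, and a passage term gave calls for *Peg10* and *Grb10*. In DKO with MK-8722 1 was called higher, against 5.47%, and 0 lower, against 3.21%. The call was for *Mest* with 0 and 5 counts, too few for a fold, and was lost without any DKO DMSO library or without DKO MK-8722 replicate 2, 3 or 4 (adjusted p 0.0617 to 0.107).

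For *Peg10* the WT libraries under torin1 held 33.9, 35.1, 36.5 and 44.1 CPM and those under MK-8722 35.8, 38.7, 36.3 and 39.1 CPM, all below the 66.9 CPM of the lowest DMSO library. Torin1 lowered it 2.05-fold (log2 fold change -1.04, SE 0.10, adjusted p = 7.82e-09) and MK-8722 also 2.05-fold (-1.03, SE 0.10, adjusted p = 4.97e-08). It was lower in 4 of 4 passages with each drug, with log2 ratios from -1.20 to -0.97 for torin1 and from -1.14 to -0.90 for MK-8722. In DKO the libraries held 4.86, 5.38, 5.53 and 6.58 CPM under torin1 and 3.55, 5.05, 3.78 and 4.69 CPM under MK-8722, which overlapped the DMSO libraries. Torin1 gave a log2 difference of 0.28 there (SE 0.13, adjusted p = 0.0783), higher in 4 of 4 passages. With passage within genotype as a block it passed (0.29, adjusted p = 0.00972), as it did without DKO DMSO replicate 1, DKO torin1 replicate 4 or WT torin1 replicate 1 (adjusted p 0.0434 to 0.0459). MK-8722 gave -0.11 (SE 0.14, adjusted p = 0.639).

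The response of *Peg10* differed between the lines. The interaction term was 1.31 for torin1 (log2 scale, SE 0.17, adjusted p = 6.62e-06) and 0.92 for MK-8722 (SE 0.17, adjusted p = 9.03e-04), both in the direction of a less negative response in DKO. Among all genes 4.68% had a term called above 0 and 6.33% below 0 for torin1, and 1.42% and 4.08% for MK-8722. Of the 5 tested members, *Peg10* was called for torin1, and *Peg10* and *Mest* for MK-8722. The *Mest* term rests on DKO counts at the floor and was lost without any 1 of 9 libraries (adjusted p 0.0537 to 0.116), namely each DKO DMSO library, DKO MK-8722 replicates 2, 3 and 4, WT DMSO replicate 4 and WT MK-8722 replicate 3. For *Grb10*, *Cdkn1c* and *Plagl1* the interaction terms for torin1 were -0.18 (SE 0.45), -0.48 (SE 0.41) and -0.33 (SE 0.23), and no difference in response was detectable.

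**Figure D3:**
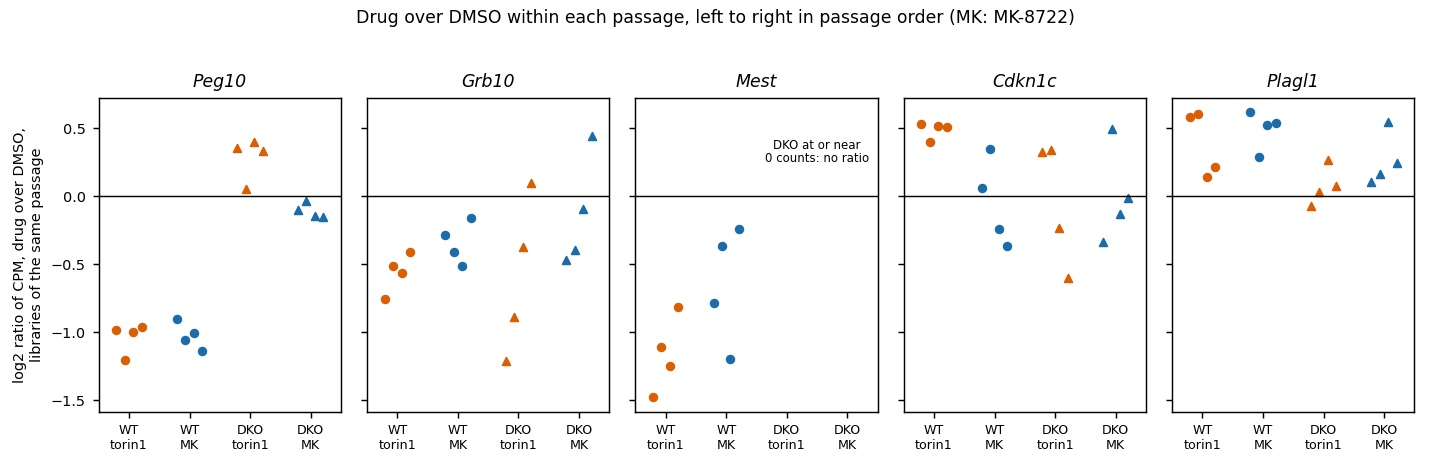
Change with each drug within passages. The vertical axis is the log2 ratio of CPM, drug over DMSO, between libraries of the same line and passage, with circles for WT, triangles for DKO, orange for torin1 and blue for MK-8722 (4 passages each). *Peg10* lies between -1.20 and -0.90 in WT for both drugs and between -0.15 and 0.40 in DKO, and *Grb10* is below 0 in all 8 WT pairs.

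*Mest* in WT fell from 58 to 74 counts per library under DMSO to 26, 28, 32 and 31 counts under torin1 and 34, 44, 33 and 42 under MK-8722. The drug and DMSO libraries did not overlap in either case. The fall was 2.24-fold with torin1 (log2 fold change -1.16, SE 0.21, adjusted p = 8.45e-05) and 1.55-fold with MK-8722 (-0.64, SE 0.21, adjusted p = 0.0235), and lower in 4 of 4 passages with each. The MK-8722 call was lost without WT DMSO replicate 1 or 4 or WT MK-8722 replicate 3 (adjusted p 0.0553 to 0.0902). With passage within genotype as a block it passed (-0.64, adjusted p = 0.0201).

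*Grb10* held 64.7, 55.7, 58.5 and 54.7 CPM under torin1 in WT, all below the DMSO libraries, and 89.8, 59.9, 60.6 and 64.9 CPM under MK-8722, which overlapped them. Its passage 7 library was the highest of the 4 under each treatment. Compared between group means, torin1 gave a log2 difference of -0.58 (SE 0.26, adjusted p = 0.0593) and MK-8722 -0.34 (SE 0.26, adjusted p = 0.356), and neither passed. Within passages *Grb10* was lower in 4 of 4 for each drug, with log2 ratios of -0.76 to -0.41 and -0.51 to -0.16. With passage within genotype as a block both passed, at -0.56 (adjusted p = 3.25e-07) and -0.34 (adjusted p = 4.05e-04). The torin1 difference also passed without DKO DMSO replicate 1 or 2, DKO MK-8722 replicate 4, WT DMSO replicate 2 or WT MK-8722 replicate 2 or 4 (adjusted p 0.0191 to 0.0463). In DKO the torin1 difference was -0.75 (SE 0.37, adjusted p = 0.0915), lower in 3 of 4 passages, and it passed with that block (adjusted p = 4.68e-04) and without DKO DMSO replicate 1 (adjusted p = 0.0126) or DKO torin1 replicate 4 (adjusted p = 0.0473).

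*Cdkn1c* in WT held 4.76, 5.12, 5.94 and 4.41 CPM under torin1, all above the highest DMSO library. Torin1 raised it 1.41-fold (log2 fold change 0.49, SE 0.20, adjusted p = 0.0376), higher in 4 of 4 passages by 0.40 to 0.53 on the log2 scale. That call was lost without WT DMSO replicate 1 or 2, WT torin1 replicate 2, 3 or 4 or WT MK-8722 replicate 4 (adjusted p 0.0518 to 0.119). With passage within genotype as a block it passed (0.49, adjusted p = 0.00147), and leaving out libraries was not repeated with that block. Under MK-8722 the WT libraries held 3.43, 4.93, 3.52 and 2.40 CPM, on both sides of the DMSO values, with a log2 difference of -0.01 (SE 0.20, adjusted p = 0.969). In DKO the differences were 0.01 (SE 0.35) and 0.10 (SE 0.35), from 7 to 23 counts per library.

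*Plagl1* in WT rose with both drugs. The libraries held 9.72, 9.78, 6.99 and 8.36 CPM under torin1, which raised it 1.32-fold (log2 fold change 0.40, SE 0.16, adjusted p = 0.0399). Under MK-8722 they held 9.97, 7.84, 9.11 and 10.46 CPM, 1.41-fold higher than under DMSO (0.50, SE 0.16, adjusted p = 0.0225). It was higher in 4 of 4 passages with each, the MK-8722 libraries lay above all DMSO libraries, and 1 torin1 library lay inside the DMSO range. The torin1 call was lost without WT DMSO replicate 1, 3 or 4, WT torin1 replicate 1, 3 or 4 or WT MK-8722 replicate 2 or 4 (adjusted p 0.0508 to 0.137), and the MK-8722 call without WT DMSO replicate 3 or 4 or WT MK-8722 replicate 2 or 4 (adjusted p 0.05075 to 0.072). With passage within genotype as a block both passed, at 0.39 (adjusted p = 9.69e-04) and 0.50 (adjusted p = 2.03e-04). Leaving out libraries was not repeated with that block. In DKO the log2 differences were 0.06 (SE 0.16) for torin1 and 0.25 (SE 0.16) for MK-8722, and the MK-8722 libraries were higher in 4 of 4 passages.

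The genes that share imprinted clusters with these members were read next, from a list of 28 of which 13 were tested. In DKO under DMSO 7 of them were called lower and 3 higher, which is 53.8% and 23.1% of those tested where 24.6% and 23.5% of all tested genes were, and their median log2 fold change was -0.54 where that of all genes was -0.01. *Sgce*, a sarcoglycan that starts 98 bases from *Peg10* on the opposite strand, went from 33.4 ± 1.95 CPM in WT to 8.41 ± 0.72 in DKO (SD, n = 4), 3.98-fold lower (adjusted p = 1.6e-15). Further along the same cluster *Ppp1r9a* had 175 counts in WT and 3 in DKO (ratio 49.6, 95% exact interval 16.7 to 243.0). Among the DMSO libraries *Ppp1r9a* passed the filter through WT alone, which fixed its direction, as for *Mest*. The shares of partners called lower and higher were not recounted without such genes, so they describe the list only. *Pon3* was 1.84-fold lower (adjusted p = 1.07e-07), and *Casd1* went from 26.4 to 17.4 and *Pon2* from 68.1 to 46.8 CPM. *Asb4*, in the same cluster, was higher, at 0.544 CPM in DKO and 0.231 in WT (adjusted p = 0.00391). It held 5 to 10 counts in the WT DMSO libraries and 8 to 18 in the DKO ones. *Asb4* passed the filter through its DKO libraries, with 21 to 41 counts under torin1, which fixed its higher direction.

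In WT torin1 moved *Sgce* and *Peg10* in opposite directions, and in DKO both differences were above 0, that of *Peg10* without a call. *Sgce* rose in WT (log2 fold change 0.54, SE 0.073, adjusted p = 1.14e-06) and in DKO (0.55, SE 0.083, adjusted p = 4.69e-06), where *Peg10* gave -1.04 and 0.28. With MK-8722 *Sgce* gave 0.04 (SE 0.073, adjusted p = 0.734) in WT and *Peg10* -1.03.

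In the *Cdkn1c* cluster, *Slc22a18*, a transporter 12.7 kb away, was 4.15-fold lower in DKO (36 against 7 counts, adjusted p = 0.00878) and *Phlda2*, a regulator of placental growth 40.5 kb away, 2.34-fold lower (86 against 31 counts, adjusted p = 0.00382). Torin1 in WT raised *Slc22a18* (log2 fold change 1.34, adjusted p = 0.00803) and lowered *Phlda2* (-1.29, adjusted p = 0.00213). With 7 counts of *Slc22a18* over the DKO DMSO libraries, none of them reached the filter's minimum count. Its lower direction was fixed among the DMSO libraries, as for *Mest*. Which group carried it through the filter was not examined, so its rise with torin1 is given as a value only. *Kcnq1ot1*, the noncoding RNA of the control region of the *Cdkn1c* cluster, and *Pon2* fell with MK-8722 in WT by 0.44 (adjusted p = 0.0483) and 0.30 (adjusted p = 1.13e-04) on the log2 scale. The *Kcnq1ot1* call was lost without any 1 of 14 libraries (adjusted p 0.0501 to 0.176), namely replicates 3 and 4 of WT DMSO, 1, 2 and 4 of WT MK-8722, 4 of WT torin1, 2, 3 and 4 of DKO DMSO, 1, 2 and 3 of DKO MK-8722 and 1 and 3 of DKO torin1. *Copg2*, whose 3′ end overlaps *Mest* by 912 bases on the opposite strand, held 27.6 ± 0.72 CPM in WT and 25.5 ± 1.25 in DKO (adjusted p = 0.125).

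All tested genes within 1 Mb of each tested member, a window set after the values were seen, differed from cluster to cluster. Around *Peg10* 9 of 11 neighbours were lower in DKO under DMSO (81.8%) and around *Mest* 7 of 17 (41.2%), where 24.6% of all tested genes were lower and 23.5% higher. Around *Grb10* there were 3, of which *Cobl* (277 against 4 counts) and *Fignl1* (77.6 against 63.4 CPM) were lower. Around *Cdkn1c* 3 of 19 were lower and 11 higher, and around *Plagl1* 1 of 11 was lower and 5 higher. Among the DMSO libraries *Ppp1r9a* near *Peg10* and *Cobl* near *Grb10* passed the filter through WT alone, which fixed their direction. *Asb4* near *Peg10* passed through DKO. The shares were not recounted without such genes and do not show an excess of lower neighbours. Genes side by side share chromatin and some share clusters, so these counts describe the neighbourhoods and carry no test.

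**Figure D4:**
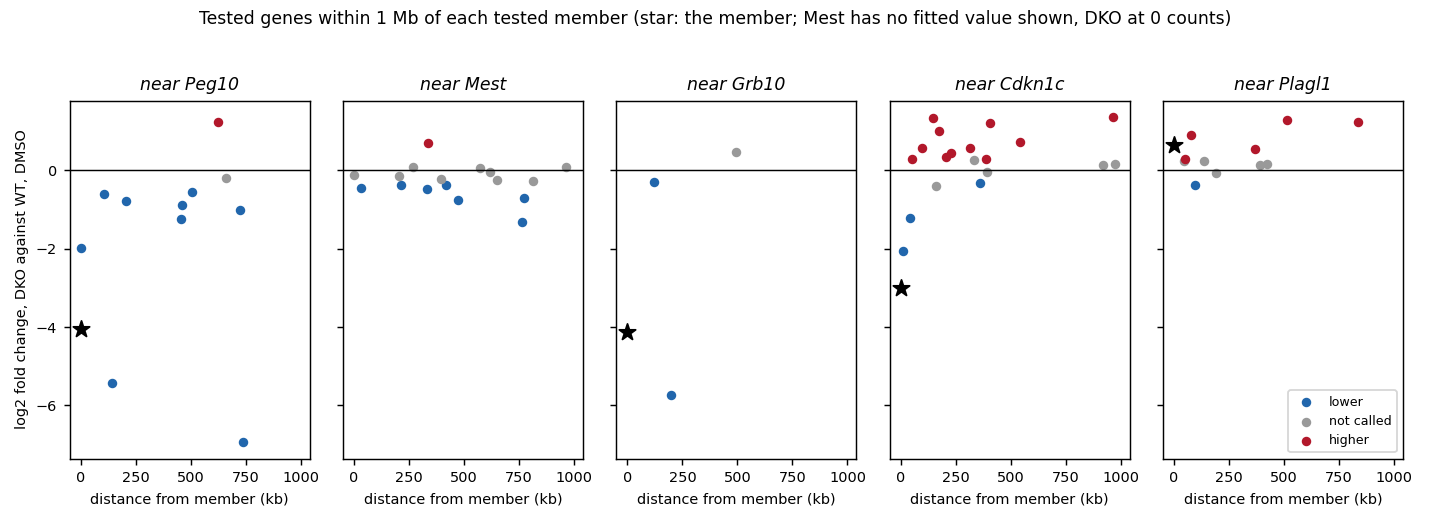
Genes around each tested member. The horizontal axis is the distance from the member in kb and the vertical axis the log2 fold change of DKO against WT under DMSO, with lower calls in blue, higher calls in red, genes not called in grey and the member as a star. *Mest* has no star because it had 0 counts in DKO. Around *Peg10* 9 of 11 genes are lower and around *Cdkn1c* 11 of 19 are higher. The *Peg10* count includes *Ppp1r9a*, which among the DMSO libraries passed the filter through WT alone.

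Imprinted genes outside these clusters were represented by 33 genes, of which 22 were tested. In DKO under DMSO 9 were called lower and 4 higher (40.9% and 18.2%, against 24.6% and 23.5% of all tested genes), with a median log2 fold change of -0.06. *Ndn*, a growth-restraining protein of the Prader-Willi region, had 243 counts in WT and 0 in DKO, at least 68.8-fold lower. *Peg12* and *Snrpn* of the same region were 49.3-fold (431 against 7 counts, adjusted p = 3.75e-15) and 12.1-fold lower (adjusted p = 1.0e-12). *Slc38a4*, an amino acid transporter, went from 186 ± 18.1 to 23.3 ± 2.18 CPM (adjusted p = 4.58e-18). *Igf2r*, the receptor that clears IGF2, went from 141.6 ± 5.63 to 72.5 ± 7.72 CPM (adjusted p = 4.21e-10), and *Airn*, the antisense RNA that overlaps it, from 1.70 to 0.177 CPM (log2 fold change -3.26, adjusted p = 1.38e-08, and -3.88 without DKO DMSO replicate 2). Under DMSO no DKO library of *Ndn*, *Peg12*, *Airn* or *Htra3*, which is described further on, reached the filter's minimum count. Among the DMSO libraries these genes passed through WT alone, which fixed their direction, as for *Mest*. The shares called lower and higher were not recounted without such genes, so they describe the list and do not show an excess of lower calls. With drugs in WT, *Igf2r* rose by 0.79 with torin1 (adjusted p = 1.26e-08) and by 0.83 with MK-8722 (adjusted p = 3.43e-08) on the log2 scale, *Sfmbt2*, a chromatin protein, rose by 1.03 with torin1 (adjusted p = 1.81e-07), and *Peg13* fell by 0.60 with MK-8722 (adjusted p = 0.00114).

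*Igf2* and *Grb10* belong to the insulin-like growth factor pathway, of which 17 of 20 listed genes were tested. In DKO under DMSO 5 were called higher and 6 lower (29.4% and 35.3%, against 23.5% and 24.6% of all tested genes). No DKO library of *Grb14* or *Igfbp2* reached the filter's minimum count under DMSO, and the shares were not recounted without such genes. *Igf2bp3*, an RNA-binding protein named for its binding to *Igf2* mRNA, went from 37.8 ± 2.29 to 0.427 ± 0.113 CPM (adjusted p = 1.07e-21). *Grb14*, the relative of *Grb10*, was 6.41-fold lower (101 against 13 counts, adjusted p = 3.21e-07). *Htra3*, a protease counted among the other imprinted genes and not in this list, had 54 counts in WT and 5 in DKO (adjusted p = 1.09e-04). Its DKO DMSO libraries were also below the filter's minimum count, which fixed its direction. *Igfbp2*, an IGF-binding protein of this list, had 54 and 7 counts (adjusted p = 0.011). A single library held 4 and 6 of these DKO counts, DKO DMSO replicate 1 for *Htra3* and 2 for *Igfbp2*, and without it the log2 fold change went from -3.09 to -4.64 and from -2.61 to -4.71, so no fold is given for either. *Igfbp4*, which holds IGFs in the medium, was 4.57-fold higher (88.3 ± 12.5 against 403 ± 66.1 CPM, adjusted p = 3.59e-13), and *Stc2*, an inhibitor of the protease that cuts it, 4.88-fold higher (adjusted p = 2.55e-08). Torin1 in WT lowered *Stc2* (log2 fold change -2.07, adjusted p = 4.29e-06) and raised *Grb14* (1.59, adjusted p = 1.31e-06). With MK-8722 in WT *Igf1* had 16 counts against 65 under DMSO (log2 fold change -1.83, adjusted p = 0.0266), but 35 of the 65 lay in WT DMSO replicate 2. The call was lost without that library (-1.20, adjusted p = 0.171) and without WT MK-8722 replicate 3 or 4 (adjusted p 0.0962 and 0.0729). *Igfbp6* gave -0.62 (adjusted p = 0.0201), a call lost without WT DMSO replicate 3 or WT MK-8722 replicate 2 or 3 (adjusted p 0.0653 to 0.0749).

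Of 21 genes that set or keep imprints, 19 were tested and 4 were called higher and 7 lower in DKO under DMSO (21.1% and 36.8%, against 23.5% and 24.6% of all tested genes). *Tet1*, which oxidises methylated DNA, was 2.74-fold lower (adjusted p = 1.4e-06), *Zfp57*, which binds imprinted control regions, 2.03-fold lower (28.9 ± 4.2 against 14.2 ± 0.517 CPM, adjusted p = 9.5e-09), and *Dnmt3b*, a de novo DNA methyltransferase, 1.65-fold lower (adjusted p = 7.54e-06). *Ezh2*, the methyltransferase of Polycomb, was 1.37-fold lower (adjusted p = 3.38e-12). *Zfp445*, another zinc finger protein of imprinted control regions, was 1.34-fold higher (adjusted p = 1.46e-08) and *Atrx*, a chromatin remodeller, 1.30-fold higher (adjusted p = 1.18e-07). With drugs in WT, *Tet3* and *Eed* fell with torin1 by 0.59 (adjusted p = 5.59e-06) and 0.38 (adjusted p = 7.75e-08), and *Tet1* and *Uhrf1* fell with MK-8722 by 0.49 (adjusted p = 0.0458) and 0.28 (adjusted p = 4.85e-06) on the log2 scale. The *Tet1* call was lost without WT DMSO replicate 1, 3 or 4, WT MK-8722 replicate 2, 3 or 4, WT torin1 replicate 2 or DKO MK-8722 replicate 2 (adjusted p 0.051 to 0.152), and *Uhrf1* came under the 1.2-fold limit without WT MK-8722 replicate 2 (log2 fold change -0.26).

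The genes whose log2 CPM over the 24 libraries ran most nearly parallel to each member were *Zfp385a* and *Calcrl* for *Peg10* (Pearson's r 0.987 and 0.986), *Zfp385a* and *Tmem37* for *Mest* (0.985 and 0.984), *Rap1gap* and *Ica1* for *Cdkn1c* (0.985 and 0.984) and *Shtn1* and *Top1mt* for *Grb10* (0.984 and 0.98). For *Plagl1* they were *Lats2* and *Tmem185b* (0.856 and 0.848). The libraries fall into 2 lines, so the first 4 members share with their likest genes mainly the step between lines, and the values are given as a description.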

How the data were processed

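RNA from 24 cultures was sequenced as 52-bp pairs with unique molecular identifiers. Per the labels and the study's methods the authors ran nf-core/rnaseq 3.11.2 (Nextflow 23.04.1), aligned with STAR to GRCm38 (Ensembl release 102) and quantified with salmon. They deposited estimated counts per gene and, per library, TPM and estimated counts per transcript. The authors' study also mentions removal of a batch effect, which is not specified, and it was not repeated here. Dose and duration of treatment are not given in the labels.

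Estimated counts were rounded. Genes were kept by edgeR's filterByExpr with a minimum of 10 counts (15401 of 55487 genes, 31844 of which had at least 1 count), scaled by TMM and fitted with edgeR 4.0.16 (R 4.3.3) by the quasi-likelihood test in its edgeR 3 form, with a mean for each of 6 groups, 18 residual degrees of freedom and a biological coefficient of variation of 10.7%. The threshold was an adjusted p below 0.05, Benjamini-Hochberg, and a change of 1.2-fold, as in the study. SE is the log2 fold change divided by the square root of F. CPM are rounded counts scaled to the TMM-adjusted library size. Of 198 genes changed in counts simulated for DKO against WT under DMSO (15002 genes tested), 190 were recovered, with 11 false calls among 14804 others. The simulation gave the other genes equal means in all groups and drew libraries independently. In the data 23.5% of genes were called higher and 24.6% lower, and libraries share passages. The simulated figures therefore check the procedure and do not give error rates for this comparison. limma 3.58.1 and DESeq2 1.42.0 gave alternatives, as did other filters, scalings, blocks and leaving out each library.

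Total counts ranged from 24668870 to 33332507 per library. Intervals and the floor of 3 counts cover counting error only. RNA integrity numbers ran from 7.9 to 9.9. Replicates of a group differed by more than sampling noise in all 36 pairs (chi-square per degree of freedom 3.75 to 37.1).

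The labels give each library a passage, and the passages pair treatments within a line. Libraries of the same line and passage deviated together with r from 0.0221 to 0.657 (24 pairs, median 0.157), and 22 of 24 libraries correlated best with their own passage. Replicate numbers do not follow passages.

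Positions come from GENCODE release M21 (GRCm38), which holds 55141 of the gene IDs and all 10 members, and promoters from RefSeq. The members and lists were chosen with earlier results of these data known. The text names the 10 members, *Tfeb* and *Tfe3*, for each list up to 6 called genes with the largest change between lines under DMSO and up to 2 with each drug in WT, neighbours of members, and the 2 likest genes of each tested member. *Casd1*, *Pon2*, *Copg2*, *Cobl*, *Fignl1* and the markers *Thy1*, *Lum*, *Krt19*, *Krt8*, *Cdh1*, *Epcam* and *Krt18* were named after their values were seen.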

Additional observations from a re-analysis of the deposited data

Results flagged for a closer look

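The following values stood apart by a rule applied to all members. In groups of 4 libraries, 2 of 29 groups held a value far from the other 3, where chance gives about 1 in 20. *Mest* in WT under torin1 was 0.815 CPM in replicate 3 (passage 7), and the nearest library held 1.003 CPM. *Grb10* in WT under MK-8722 was 89.8 CPM in replicate 4, also of passage 7, and the nearest held 64.9 CPM.

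The response to a drug differed between the lines in 3 cases by edgeR's interaction term. On the log2 scale the term for *Peg10* was 1.31 with torin1 and 0.92 with MK-8722. For *Mest* with MK-8722 it was 4.15 (adjusted p = 0.0416), a value set by 0 and 5 DKO counts.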

How the results depend on the processing

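*Grb10*, *Peg10*, *Cdkn1c* and *Mest* kept their lower call in DKO under each treatment in every setting that gave a value. *Plagl1* kept its higher call under DMSO, with log2 fold changes from 0.51 to 0.72. Depth limits *Mest* and *Cdkn1c* in DKO, where libraries held at most 2 and 23 counts. Over the other settings, 672 of 730 log2 differences of members kept their direction and side of the threshold, 33 lost the call, 15 gained it and 10 turned sign, and on leaving out a library 1008 of 1080 kept both, 41 lost the call, 12 gained it and 19 turned sign. Causes were not tested except where the setting itself removes a gene.

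With 10 counts required in every library, *Mest* and *Cdkn1c* dropped out, and 2 members were lower in DKO under DMSO, torin1 and MK-8722, 1 was higher and 1 lower with torin1 in WT, 1 lower with MK-8722 in WT, 0 higher with MK-8722 in DKO, and 1, *Peg10*, had a response term above 0 for MK-8722. Without any filter 0 were higher with torin1 in WT, 1 lower with MK-8722 in WT, 0 higher with MK-8722 in DKO, and 1, *Peg10* again, had a response term above 0 for MK-8722. The last 2 counts were the same, 0 and 1, with DESeq2, the edgeR 4 form, only the groups compared, a test against 1.2-fold, a length offset, without DKO passage 8 and without the library of lowest RNA integrity, and the former was 0 with limma voom. Members higher in DKO under MK-8722 were 0 with library size alone, the test against 1.2-fold, the length offset and without DKO passage 8. Members higher with torin1 in WT were 1 with voom and the length offset and 0 with the test against 1.2-fold and without WT passage 11. With MK-8722 in WT 0 were higher without WT passage 11 and by the test against 1.2-fold, and 1 was lower by that test and the length offset. Members with a response term called above 0 for torin1 were 2 with voom. Members higher with torin1 in DKO were 1 without WT passage 11. With all 12 libraries of each line 1 transcript passed, that of *Mest* with the largest WT share, whose DKO share rests on the 7 counts of 5 libraries.

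With passage as a block 1 member was higher in DKO under torin1 and 1 was higher with torin1 in DKO. With passage within genotype as a block 1 was higher and 1 lower with torin1 in DKO. With the replicate number as a block 1 was higher and 4 lower in DKO under DMSO, and no count of called members moved. *Grb10* gained its lower call with torin1 in WT with no filter, voom, the edgeR 4 form, only the groups compared, both passage blocks, without WT passage 11 and without DKO passage 8 (adjusted p 3.25e-07 to 0.0459), which moved that count of lower members from 2 to 3. Numbers do not pair the libraries, since 8 of 24 correlated best with their own number (60 pairs, r -0.414 to 0.657).

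Leaving out each library in turn gave 1 higher and 4 lower in DKO under DMSO, 0 to 1 and 4 under torin1, and 0 to 1 and 4 under MK-8722. With torin1 it gave 0 to 2 higher and 2 to 3 lower in WT and 0 to 1 higher and 0 to 1 lower in DKO. With MK-8722 it gave 0 to 1 higher and 1 to 2 lower in WT and 0 to 1 higher and 0 lower in DKO. Members with a response term called above 0 were 1 for torin1 and 1 to 2 for MK-8722. For other named genes of the lists and the epithelial markers, an alternative chosen after seeing the data, it turned no sign, and the calls lost are given beside the values. That was run for DKO against WT under DMSO and for the drugs in WT. It was not run for *Tfeb*, *Tfe3*, *Ndn*, *Ppp1r9a*, *Copg2*, *Cobl*, *Fignl1*, *Thy1*, *Lum* or the likest genes. Nor was it run for *Sgce* with torin1 in DKO or with MK-8722 in WT.

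Signs turned only in differences that were not called. *Cdkn1c* with torin1 in DKO was -0.01 without a filter and with the passage block (-0.01283 and -0.0122), -0.0486 with voom, -0.0625 without DKO passage 8, and -0.29 to 0.17 on leaving out a library. *Cdkn1c* with MK-8722 in WT was 0.0602 without WT passage 11, 0.0435 with the length offset, and -0.22 to 0.13 on leaving out a library. In DKO with MK-8722 it was -0.28 to 0.29, and its response ran from -0.26 to 0.33 for MK-8722 and was 0.0176 for torin1 with the length offset. The *Grb10* response to torin1 was 0.0338 with voom, 0.14 without DKO passage 8, and -0.46 to 0.37 on leaving out a library, and the response to MK-8722 was -0.12 with the length offset and -0.28 to 0.65. *Grb10* with MK-8722 in DKO was -0.62 to 0.31 and *Plagl1* with torin1 in DKO -0.0546 to 0.19.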

Other observations

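Levels of some members followed the passage of the culture as well as the line. *Peg10* was highest in the passage 11 library of WT under DMSO (86.1 CPM), torin1 (44.1 CPM) and MK-8722 (39.1 CPM), and *Grb10* was highest in the passage 7 library of WT under each of them (109.5, 64.7 and 89.8 CPM). In DKO, *Grb10* went from 10.03 CPM at passage 8 to 1.92 CPM at passage 11 under DMSO and from 7.25 to 2.61 CPM under MK-8722, while *Plagl1* went from 13.2 to 8.40 and from 14.2 to 9.95 CPM. There is a single culture for each passage and treatment, so these are values of single libraries and were not tested.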
